A study of Rattus norvegicus with 6 samples.

Results

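Mitosis and DNA replication genes are the transcripts by which cycling cells are recognised in bulk RNA. The list held 58 genes, 30 of them acting in mitosis (cyclins, mitotic kinases, kinetochore and spindle proteins) and 28 in DNA replication (origin licensing, the replication fork, nucleotide supply and entry into S phase). A gene counted as measured where a probe whose RefSeq accession maps to its symbol was also tested. A probe was tested if 1 group or both had it well above background on each of its 3 arrays. This was so for 50 of the 58 genes, 24 of mitosis and 26 of replication. The array named 15168 symbols, and 10754 named genes were tested. The 8 genes without a tested probe were Mki67, Top2a, Bub1b, Cenpe, Anln and Ect2 of mitosis and Mcm5 and Uhrf1 of replication. They have no value here, and these counts do not separate a gene without a named probe from 1 whose probes were too dim. The series measured rat dermal fibroblasts, the collagen-producing cells of the skin, after transduction with a control lentivirus (control, n = 3) or with a lentivirus whose shRNA targets lnc-URIDS, a long non-coding RNA (called knockdown here, n = 3). All 6 samples were given virus at a multiplicity of infection of 10 and 2 µg/mL puromycin for 48 h, in DMEM with 1000 mg/L glucose and 10% FBS, so that control cells carried a vector and selection too and no untransduced cells were compared. Total RNA was labelled with Cy3 and each sample was read on 1 one-colour Agilent array. Whether samples within a group are separate cultures or animals is not stated. The p-values and confidence intervals set each group difference against the spread of these samples only. That spread may be technical, so they may not extend to new cultures. No probe was named for lnc-URIDS, and its knockdown was not checked here.

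A cell that divides first licenses its replication origins by loading MCM complexes on DNA, then opens S phase when cyclin E and the transcription factor E2F release the replication genes, and finally enters mitosis under cyclin B and Cdk1. Transcripts of replication genes peak around the start of S phase, and those of mitosis genes in G2 and M phase, through a short promoter element called the cell cycle genes homology region (CHR). Cells that leave the cycle lose both groups of transcripts. In dermal fibroblasts these genes mark the proliferating cells of a culture or a healing wound. In a bulk sample, fewer cycling cells and less RNA per cycling cell cannot be told apart.

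The promoters of the listed genes carried short sequences that differed between the mitosis and the replication genes. RefSeq promoters of assembly GRCr8, each reaching from 250 bases before to 50 bases after an annotated start, were matched by symbol for 49 of the 58 genes, 26 of mitosis and 23 of replication (25 windows, because Uhrf1 has 3). Ccna2, Aurkb, Tpx2, Ube2c, Mcm4, Rrm2, Cdc6, Ccne2 and E2f1 had no entry. Searched on both strands, the CHR letters TTTGAA were present in 19 of 26 mitosis promoters (73.08%) and in 1 of 25 replication windows, that of Mcm2. Among all 33469 promoters of this length the share was 18.35%. The E2F letters TTTGGCGC, TTTCCCGC, TTCCCGCC or TTTGGCGG, of which the second and the third overlap each other, were present in 17 of 25 replication windows (68%) and in 1 of 26 mitosis promoters, that of Kif23, against 3.331% of all promoters. CCAAT boxes (CCAAT) were present in 21 of 26 mitosis promoters (80.77%) and 17 of 25 replication windows (68%), against 37.49% of all promoters. The CHR and CCAAT letters stood together in 16 mitosis promoters (61.54%) and in 0 replication windows, against 7.41% of all promoters. All promoters include those of non-coding genes. Among the 21851 protein-coding promoters the shares were 17.07% for CHR, 4.366% for E2F, 37.96% for CCAAT and 7.043% for CHR with CCAAT. A match is a description of the letters and not a site that was shown to be used, and these shares were not tested.

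Cdk1 and Cdc20 are printed as mitosis genes of the kind with CHR and CCAAT, and Gins1 and Cdc45 as the replication genes with the smallest p below. Capitals mark every CHR, E2F and CCAAT match on either strand, so that CCAAT in reverse reads ATTGG. The windows lay at chr20:19265043-19265342 on the plus strand (Cdk1), chr5:137255750-137256049 on the minus strand (Cdc20), chr3:160184670-160184969 on the plus strand (Gins1) and chr11:95689928-95690227 on the plus strand (Cdc45), and each is read 5′ to 3′ along its gene.
Cdk1: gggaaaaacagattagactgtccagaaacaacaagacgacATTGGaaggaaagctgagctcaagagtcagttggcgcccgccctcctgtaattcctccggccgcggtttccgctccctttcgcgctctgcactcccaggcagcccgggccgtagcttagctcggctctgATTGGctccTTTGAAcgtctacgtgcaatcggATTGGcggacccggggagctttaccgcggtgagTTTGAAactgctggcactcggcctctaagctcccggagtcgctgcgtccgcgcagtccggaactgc
Cdc20: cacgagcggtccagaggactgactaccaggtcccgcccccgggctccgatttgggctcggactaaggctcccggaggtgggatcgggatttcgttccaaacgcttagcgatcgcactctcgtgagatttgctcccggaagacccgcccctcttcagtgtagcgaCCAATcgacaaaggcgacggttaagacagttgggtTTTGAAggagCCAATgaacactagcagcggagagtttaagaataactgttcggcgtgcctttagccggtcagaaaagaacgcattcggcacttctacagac
Gins1: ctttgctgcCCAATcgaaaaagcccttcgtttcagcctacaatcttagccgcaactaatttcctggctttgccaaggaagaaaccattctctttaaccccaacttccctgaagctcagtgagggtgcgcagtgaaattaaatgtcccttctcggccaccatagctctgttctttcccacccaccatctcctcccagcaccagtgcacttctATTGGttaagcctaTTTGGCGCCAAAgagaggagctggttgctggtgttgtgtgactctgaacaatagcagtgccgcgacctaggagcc
Cdc45: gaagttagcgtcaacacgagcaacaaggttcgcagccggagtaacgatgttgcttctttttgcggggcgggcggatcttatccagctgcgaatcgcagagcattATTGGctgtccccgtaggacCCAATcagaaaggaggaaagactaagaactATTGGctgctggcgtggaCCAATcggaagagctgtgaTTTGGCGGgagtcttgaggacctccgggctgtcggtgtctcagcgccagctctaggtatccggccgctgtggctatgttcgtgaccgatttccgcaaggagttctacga
In Cdk1 the CHR letters began 72 and 16 bases before the start, and CCAAT boxes in reverse 210, 81 and 49 bases before it. In Cdc20 the CHR began 51 bases before the start, with CCAAT boxes at 86 and 41 bases before it. In Gins1 an E2F match and its overlapping reverse form began 25 and 21 bases before the start, and in Cdc45 an E2F match began 59 bases before it. Neither Gins1 nor Cdc45 held the CHR letters in this window.

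Transcripts of all 50 measured genes were present in both groups. Each was well above background on all 6 arrays by the scanner's own flag. Except for the cell type markers, signals below are the processed intensity after every array was brought to a common 75th percentile of 1538 units. A ratio of such signals of a gene is its fold change. On that scale the 50 genes ranged from 34.8 to 19137 units. Local backgrounds around their spots were 17 to 31 units. Those are raw intensities, while the signals are already background-subtracted, so a signal of that size is not background. Of the 50, 27 lay above the array's 75th percentile on all 6 arrays (17 of 24 mitosis and 10 of 26 replication genes). Among all 18464 tested features, 5779 had means above it in both groups. For these 50 genes, transcripts that cycling cells make were therefore measured in both groups. Listed genes too dim for the filter were left out, and Mki67 and Top2a were among the genes without a value. Cdt1, the loader of MCM complexes, and Brca1, a repair factor, gave the lowest signals of the 50, and their errors were correspondingly wide.

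**Figure D1:**
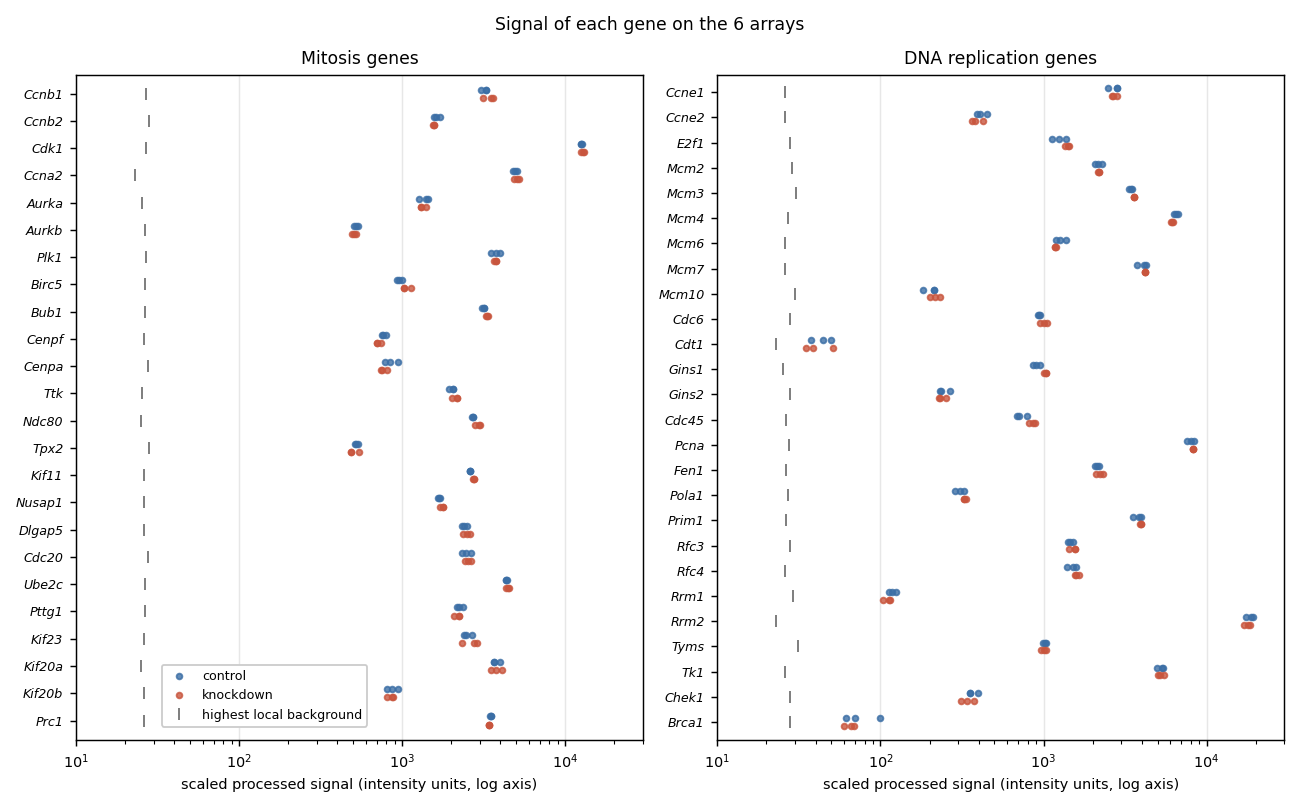
Scaled processed signal (intensity units, log axis) of the 24 mitosis genes and the 26 DNA replication genes with a tested probe. Each point is 1 array, with controls above knockdowns in each row. Grey ticks give the highest local background around the spots of a gene, as a raw intensity, whereas the signals are background-subtracted. All points lie to the right of the background ticks, and the points of both groups lie close together in nearly every row.

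No mitosis or replication gene passed the test between knockdown and control. Limma was fitted over 18464 features, with the brightest tested probe standing for a gene. In that fit 0 of 50 genes had a Benjamini-Hochberg adjusted p under 0.05, and of all features 0% did (0 of 18464). At an unadjusted p under 0.05 there were 0 of 24 mitosis genes and 2 of 26 replication genes (Gins1 and Cdc45, both with higher means in the knockdown), against 14.1% of all features (2611), so the members did not exceed that share. Higher means at that level were found in 5.9% of all features (1090), and lower means in 1521 features. The share of higher among these features depended on the scaling: it was 41.7% here, 57.2% with arrays centred on the median of tested probes, 52.9% with quantile normalization, 59.1% with normexp background correction and 52.6% with both normexp and quantile normalization. The scalings also moved the median log2 fold change over all features. It was -0.007 here, 0.017 with median centring, 0.008 with quantile normalization, 0.060 with normexp and 0.006 with normexp and quantile normalization. A gene whose fold change lay nearer to 0 than such a shift can change sign without moving relative to the other features. Of the 61 genes followed under the scalings, 4 changed sign with median centring, 1 with quantile normalization, 10 with normexp and 5 with both. Relative to the median of all features 0, 3, 23 and 5 did, in that order. Median centring shifts all genes of an array alike, so its 0 was fixed in advance. Normexp did not move genes alike: Cdt1 went from -0.09 to 0.27 and Mcm4 from -0.08 to -0.09.

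The differences were small and, against the spread of these samples, closely bounded. Log2 fold changes (knockdown minus control) lay between -0.16 and 0.15 for the mitosis genes and between -0.22 and 0.23 for the replication genes, with medians of 0.03 and 0.03. Over all features the median was -0.01, and the values ran from -2.18 to 2.55. The 95% confidence interval of the fold change lay within 1.25-fold in either direction for 44 of the 50 genes, against 57.6% of all features. By group these were 23 of 24 mitosis and 21 of 26 replication genes. The 6 genes whose interval reached further were Cenpa, E2f1, Chek1, Brca1, Cdt1 and Cdc45. The median standard error was 0.05 for the mitosis genes and 0.06 for the replication genes, against 0.07 over all features. The members were also brighter, with a median control log2 signal of 0.26 relative to the 75th percentile against -1.61 over all features, and the part of brightness in the narrow intervals was not tested. The 3 control values and the 3 knockdown values did not overlap for 13 of the 50 genes, near the 21.8% of all features. These were Prc1, Birc5, Ccnb2, Cenpf, Ndc80, Bub1, Kif11 and Nusap1 of mitosis, and Gins1, Cdc45, Mcm4, Cdc6 and Mcm3 of replication.

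**Figure D2:**
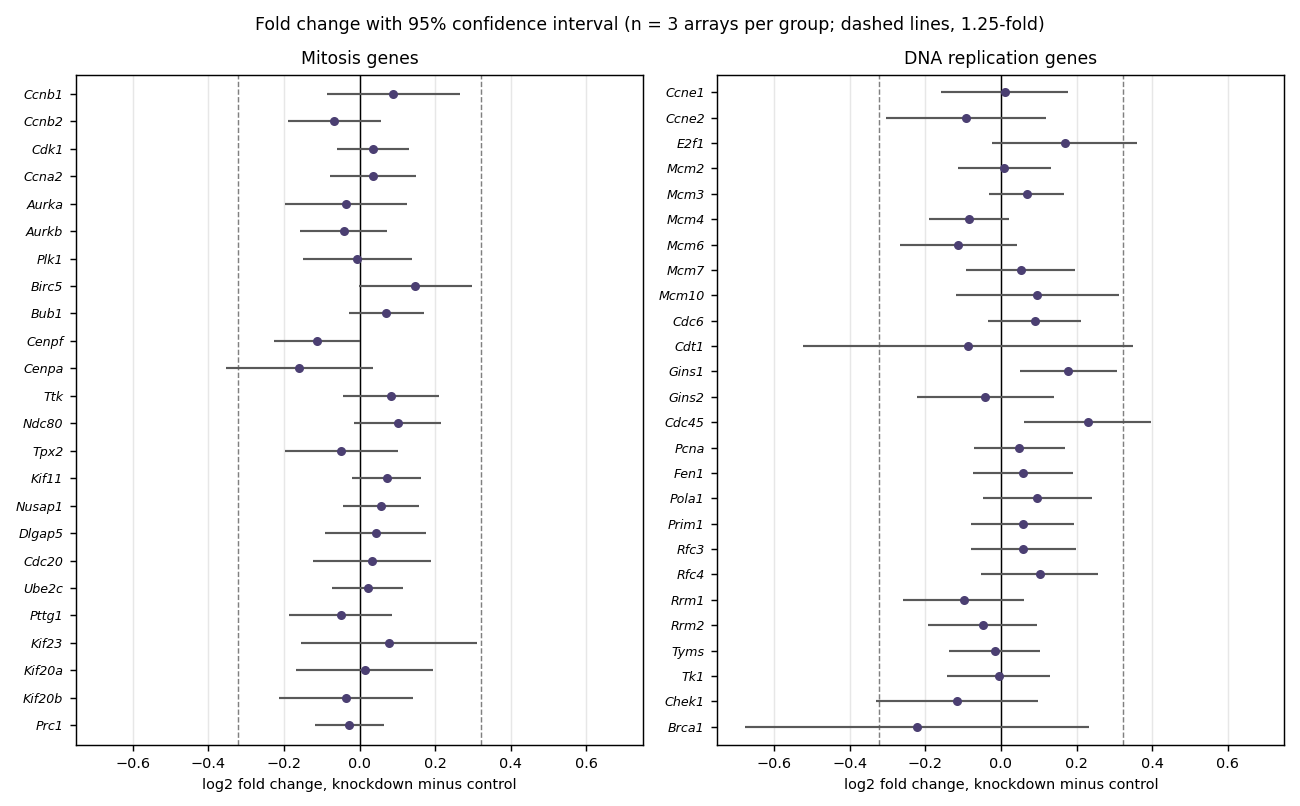
Log2 fold change, knockdown minus control, of each measured gene (point) with its 95% confidence interval from limma (line), n = 3 arrays per group, genes ordered by role. Dashed lines mark 1.25-fold in either direction. Of the 50 intervals 44 lie between them, and the points run from -0.22 (Brca1) to 0.23 (Cdc45).

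The kinases and cyclins that open mitosis differed little. Of the 7 measured, 3 had a higher and 4 a lower mean in the knockdown, and the median log2 fold change was -0.01. Cdk1, the kinase that drives entry into mitosis, gave signals of 12416, 12592 and 12542 in the controls and 12583, 12999 and 12918 in the knockdowns. Its highest control value lay just above its lowest knockdown value, the log2 fold change was 0.04 ± 0.04 (SE) and the fold was 1.03 with a 95% interval of 0.960 to 1.095 (limma, adjusted p = 0.769). Ccnb1, its cyclin partner, gave signals of 3264, 3284 and 3028 in the controls and 3112, 3583 and 3503 in the knockdowns. Knockdown 1 lay among the controls and the other two knockdown samples above them, with a log2 fold change of 0.09 ± 0.07 (limma, adjusted p = 0.653). Ccnb2, the other B cyclin, had lower values in all 3 knockdown samples than in the controls, at -0.07 ± 0.05. Ccna2, the cyclin of S and G2 phase, gave signals of 4789, 5066 and 4914 in the controls and 4885, 5172 and 5091 in the knockdowns, and the groups overlapped. Its probes took opposite signs, 0.04 ± 0.05 for the brighter and -0.04 ± 0.04 for the other, and the mean of both was -0.0028. Aurkb, the kinase of the chromosomal passenger complex, gave signals of 535, 522 and 507 in the controls and 509.7, 489.6 and 521 in the knockdowns with overlapping groups and -0.04 ± 0.05, or 0.02 with normexp, where it stayed below the median of all features (0.060), and 1.11e-05 with array weights. Aurka, which matures centrosomes and the spindle, had a log2 fold change of -0.04 ± 0.07. Plk1, the kinase of mitotic entry and exit, had -0.01 ± 0.06, or 0.02, 0.03 and 0.06 with median centring, normexp and normexp with quantile normalization. The move to the first of these equals that of all features, and only the last lay clearly above the median of all features (0.006).

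Kinetochore and chromosome proteins held the mitosis genes with the smallest p, and they did not share a direction. Cenpf, a large kinetochore protein of G2 and M phase, gave signals of 761, 758 and 795 in the controls and 699, 703 and 739 in the knockdowns. All 3 knockdown values lay below the controls, with a log2 fold change of -0.11 ± 0.05 and a fold of 0.925 (95% interval 0.855 to 1.001; limma, adjusted p = 0.36). Its other probe gave -0.23 ± 0.07, the same direction. Cenpa, the histone variant that marks centromeres, gave signals of 789, 941 and 838 in the controls and 739.6, 807 and 749 in the knockdowns. The lowest control lay below the highest knockdown sample, and the log2 fold change was -0.16 ± 0.08 (limma, adjusted p = 0.434). Ndc80, which binds microtubules at the kinetochore, gave signals of 2726, 2739 and 2677 in the controls and 2787, 3008 and 2940.3 in the knockdowns. Here the knockdown samples lay above the controls without overlap, at 0.10 ± 0.05 (limma, adjusted p = 0.403). Birc5 (survivin), a subunit of the passenger complex, gave signals of 926, 951 and 998 in the controls and 1032, 1135 and 1019.5 in the knockdowns. Its groups did not overlap, and the log2 fold change was 0.15 ± 0.06, a fold of 1.11 with a 95% interval of 0.998 to 1.23 (limma, adjusted p = 0.36). The spindle checkpoint kinases Bub1 and Ttk had log2 fold changes of 0.07 ± 0.04 and 0.08 ± 0.05, and the other Bub1 probe gave 0.06 ± 0.09. Among the 5 kinetochore and checkpoint genes 3 means were higher and 2 lower, and none passed the test.

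Spindle, anaphase and cytokinesis genes covered the rest of mitosis. Kif11, the motor that separates the spindle poles, gave signals of 2606, 2613 and 2619.9 in the controls and 2721, 2758 and 2763 in the knockdowns. The knockdown values lay above the controls without overlap, with a difference of 0.07 ± 0.04 (limma, adjusted p = 0.446). Nusap1, Dlgap5 and Tpx2, which organise spindle microtubules, had log2 fold changes of 0.06 ± 0.04, 0.04 ± 0.05 and -0.05 ± 0.06; that of Tpx2 was 0.017 with normexp, below the median of all features (0.060). Cdc20, the activator of the anaphase-promoting complex, gave signals of 2472, 2322 and 2628 in the controls and 2636, 2527 and 2430.3 in the knockdowns. Its groups overlapped and its log2 fold change was 0.03 ± 0.06 (limma, adjusted p = 0.889), or -0.04 with array weights. Ube2c, the ubiquitin-conjugating enzyme of that complex, and Pttg1 (securin), one of its targets, had 0.02 ± 0.04 and -0.05 ± 0.06. In cytokinesis, the central spindle proteins Kif23, Kif20a, Kif20b and Prc1 had 0.08 ± 0.09, 0.01 ± 0.07, -0.04 ± 0.07 and -0.03 ± 0.04, and the other Prc1 probe gave -0.11 ± 0.05. The values of Kif20a and Kif20b changed sign when single samples were left out.

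**Figure D3:**
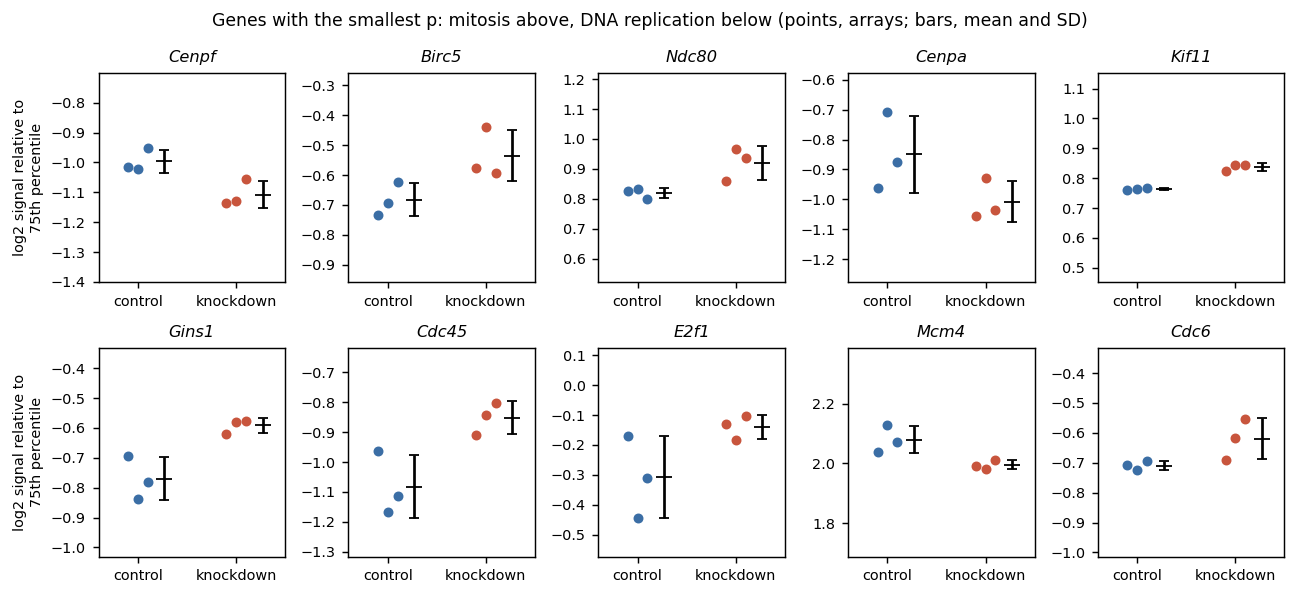
Log2 signal relative to the array's 75th percentile of the 5 mitosis genes (upper row) and the 5 replication genes (lower row) with the smallest p, 1 point per array, with the mean and SD of 3 arrays beside them; every panel spans the same 0.7 log2 units on its axis. Groups do not overlap for Cenpf, Birc5, Ndc80, Kif11, Gins1, Cdc45, Mcm4 and Cdc6, and overlap for Cenpa and E2f1.

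By the brightest probe of each gene, the replication helicase held the only members with an unadjusted p under 0.05. Among the 10 members with more than 1 probe, the other probes of Cenpf, Prc1 and Rrm2 also reached that level, all lower in the knockdown. The 14.1% of all features at that level refers to brightest probes, and the share over all tested probes was not counted. Their unadjusted p was 0.0151, 0.0471 and 0.0355 (limma over all tested probes), and none passed after adjustment. The active helicase is made of the MCM ring, Cdc45 and the GINS complex. Gins1, a GINS subunit, gave signals of 950.2, 861 and 896 in the controls and 1001, 1028 and 1032 in the knockdowns. Control 1 was the highest control and still lay below the lowest knockdown sample. The log2 fold change was 0.18 ± 0.05, a fold of 1.13 with a 95% interval of 1.04 to 1.24 (limma, unadjusted p = 0.0142, adjusted p = 0.237). Cdc45, which joins the ring to GINS when an origin fires, gave signals of 788, 684 and 711 in the controls and 818, 857 and 882 in the knockdowns. Its groups did not overlap either, and the log2 fold change was 0.23 ± 0.07, a fold of 1.17 with a 95% interval of 1.04 to 1.32 (limma, unadjusted p = 0.0156, adjusted p = 0.243). For both genes control 2 was the lowest of the 6 arrays. Without it the log2 fold changes were 0.15 for Gins1 and 0.19 for Cdc45. Within the 4 arrays scanned together they were 0.19 and 0.24, and between the other two arrays, 1 per group and so without a test, 0.16 and 0.20.

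The call on these 2 genes depended on how arrays were weighted. With array quality weights, which gave knockdown 3 a weight of 4.63 and control 1 one of 0.407, Gins1 had an adjusted p of 0.0460 at a log2 fold change of 0.20, and Cdc45 one of 0.0456 at 0.28, while 877 features passed in all (limma). Over all alternatives the adjusted p of Gins1 ran from 0.0460 to 0.63 and that of Cdc45 from 0.0456 to 0.637, and neither changed direction. Gins2, another GINS subunit, had -0.04 ± 0.07, or 0.04 with normexp, below the median of all features (0.060), and 0.02 without control 1. Outside the list, Gins4 had 0.09 ± 0.04 and Gins3 -0.28 ± 0.04. Gins3 gave low signals of 31.7, 31.5 and 32.5 in the controls and 27.2, 25.9 and 25.7 in the knockdowns. Its highest local background was 32 units, a raw intensity, while the signals are background-subtracted. With normexp the log2 fold change of Gins3 was 0.23. With array weights it passed at an adjusted p of 0.0434 (limma; range over the alternatives 0.0434 to 0.689). The 4 GINS subunits thus gave values of both signs.

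Origin licensing genes gave both signs. Of the 8 measured, 5 means were higher and 3 lower, with a median of 0.03. Mcm4, a subunit of the MCM ring, gave signals of 6318, 6718 and 6465 in the controls and 6117, 6073 and 6205 in the knockdowns. The knockdown values lay below the controls without overlap, at -0.08 ± 0.04 (limma, adjusted p = 0.448), and its other probe gave -0.06 ± 0.06. Mcm2, another subunit, gave signals of 2275, 2068 and 2155 in the controls and 2155, 2182 and 2196 in the knockdowns with overlapping groups, and its probes took opposite signs, 0.01 ± 0.05 and -0.04 ± 0.07. Mcm3, Mcm6 and Mcm7, also of the ring, had log2 fold changes of 0.07 ± 0.04, -0.11 ± 0.06 and 0.05 ± 0.06, so that subunits of a single complex lay on both sides of 0. Cdc6, which loads the ring with the origin recognition complex, gave signals of 941, 931 and 949.9 in the controls and 954, 1002 and 1048 in the knockdowns. All knockdown values lay above the controls, the closest by a few units, at 0.09 ± 0.05 (limma, adjusted p = 0.484). Cdt1, its partner in loading, had -0.09 ± 0.18, a sign that turned to 0.27 with normexp, and Mcm10, which acts as the helicase starts, had 0.10 ± 0.09. The intervals of Cdt1, from 0.70 to 1.27-fold, and of Brca1, from 0.63 to 1.18-fold, were the widest of the 50. Fold changes within those bounds were compatible with the values of these genes.

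Replication fork genes all had slightly higher means in the knockdown. For 6 of 6 (Pcna, Fen1, Pola1, Prim1, Rfc3 and Rfc4) the log2 fold change was between 0.05 and 0.10, and none passed the test. Pcna, the sliding clamp that holds polymerases on DNA, gave signals of 8336, 7590.4 and 8006 in the controls and 8225, 8269 and 8247 in the knockdowns. Control 2 was lower than the other 5 arrays, the groups overlapped, and the log2 fold change was 0.05 ± 0.05 (limma, adjusted p = 0.743). Pola1 and Prim1, which make the primers, had 0.10 ± 0.06 and 0.06 ± 0.05. Rfc3 and Rfc4, which load the clamp, had 0.06 ± 0.06 and 0.10 ± 0.06, and Fen1, which trims the flaps of Okazaki fragments, 0.06 ± 0.05. Over all features 47.2% of means were higher in the knockdown. The 6 signs were the same under every alternative tried, but sizes depended on control 2. Without that array Pcna had 0.01, Prim1 0.01 and Rfc4 0.05, while Fen1, Pola1 and Rfc3 had 0.08, 0.10 and 0.05. With normexp Pcna and Prim1, at 0.04 each, lay below the median of all features (0.060).

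Nucleotide supply genes had means on the other side of 0. Rrm2, the regulated subunit of ribonucleotide reductase, gave signals of 17456, 19137 and 18634 in the controls and 16980.5, 18587 and 17865 in the knockdowns. The groups overlapped and the log2 fold change was -0.05 ± 0.06 (limma, adjusted p = 0.807), with -0.13 ± 0.05 for its other probe and 0.01 under normexp with quantile normalization. Tyms, which makes thymidylate, gave signals of 989, 1025 and 1035 in the controls and 1040.1, 1013 and 963 in the knockdowns and -0.02 ± 0.05. Rrm1, the large subunit of the reductase, had -0.10 ± 0.06 and Tk1, the thymidine kinase of S phase, -0.01 ± 0.06. With median centring Tyms had 0.01 and Tk1 0.02, a move equal to that of all features. Relative to the median of all features Tk1 lay at 0.001 from the start, so its sign carried no direction. With normexp Rrm1 had 0.12, above the median of all features (0.060), and Tyms 0.02, below it.

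The genes that control entry into S phase gave no common direction. E2f1, the transcription factor that switches on replication genes, gave signals of 1367, 1131 and 1239 in the controls and 1405, 1354 and 1430.4 in the knockdowns. Control 1 lay among the knockdown samples, and the log2 fold change was 0.17 ± 0.08 (limma, adjusted p = 0.404). Its other probe gave -0.08 ± 0.09, so the probes of E2f1 disagreed in sign. Ccne1, a cyclin E, gave signals of 2477, 2803 and 2814 in the controls and 2660.4, 2841 and 2639 in the knockdowns with 0.01 ± 0.07, which turned to -0.04 with array weights. Ccne2, the other cyclin E, gave signals of 449, 390.2 and 406 in the controls and 427, 362 and 380.4 in the knockdowns with -0.09 ± 0.09, or 0.02 with normexp, below the median of all features (0.060). Both overlapped between groups (limma, adjusted p = 0.977 and 0.714). The checkpoint kinase Chek1 had -0.12 ± 0.09 and Brca1 -0.22 ± 0.18; control 1 of the latter was high (99.4 units against 59.6 to 69.4 on the other 5 arrays), and its value was -0.02 without that array and 0.15 with normexp.

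On 3 of the 6 arrays (controls 1 and 2 and knockdown 1) the mitosis and the replication genes deviated in opposite senses, and on the other 3 in the same sense. Each gene was set against its own mean over the 6 arrays, and the median was taken over the genes of a group. For the mitosis genes this median was -0.03, 0.02 and -0.01 in controls 1, 2 and 3 and -0.02, 0.04 and 0.02 in knockdowns 1, 2 and 3 (log2). For the replication genes it was 0.04, -0.04 and -0.01 in the controls and 0.03, 0.03 and 0.02 in the knockdowns. Control 2 was thus the highest control for mitosis and the lowest for replication, and control 1 the reverse. Control 3 and knockdown 1 were scanned together and apart from the other 4 arrays, and their medians lay within the range of the other 4 for both gene groups. The part of the scan in these shifts was not tested.

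**Figure D4:**
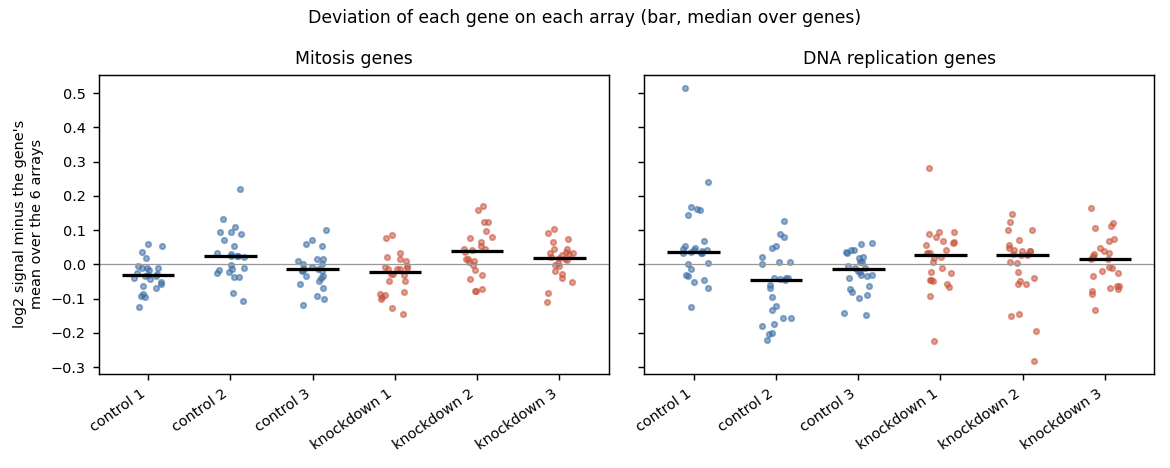
Log2 signal of each gene minus its mean over the 6 arrays (points) and the median over genes (black bar) on each array, mitosis genes at left and replication genes at right. The medians lie between -0.04 and 0.04; control 2 is the highest control for mitosis and the lowest for replication.

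Other cell cycle genes, listed by function and not part of the 58, also gave no gene past the threshold. Of 46 further mitosis genes 31 were tested, 3 with a higher and 2 with a lower mean at an unadjusted p under 0.05, near the 14.1% of all features, and the median log2 fold change was -0.003. Smc4, a condensin subunit that compacts chromosomes, gave signals of 2253, 2263 and 2241 in the controls and 2462, 2647 and 2559 in the knockdowns without overlap and 0.18 ± 0.04 (limma, adjusted p = 0.206). Nek2, a centrosome kinase, had -0.17 ± 0.05, and -0.12 ± 0.07 with its other probe (limma, adjusted p = 0.225). Foxm1, the transcription factor of the G2 and M phase genes, had 0.05 ± 0.04, with -0.08 ± 0.12 for its other probe. Of 50 further replication genes 42 were tested, 1 with a higher and 1 with a lower mean at that level (Orc6 and Gins3), fewer than that share, with a median of 0.04. Orc6, of the origin recognition complex, had 0.16 ± 0.05 (limma, adjusted p = 0.249). None of these genes passed at an adjusted p under 0.05, though Smc4 did with array weights, at 0.0456 (limma; range over the alternatives 0.0456 to 0.639).

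Genes upstream of the cycle gave none past the threshold either. Of 11 G1 cyclins, kinases and growth inputs tested, 1 mean was higher and 1 lower at an unadjusted p under 0.05, against 14.1% of all features. Ccnd1 (cyclin D1), which links growth signals to the cycle, gave signals of 3379, 4107 and 3707 in the controls and 2804, 2810.2 and 2923 in the knockdowns. Every knockdown value lay below every control, with a log2 fold change of -0.39 ± 0.08, a fold of 0.765 (limma, adjusted p = 0.197). Skp2, the ubiquitin ligase subunit that removes the inhibitor p27, gave signals of 306, 215 and 264 in the controls and 379, 318 and 343 in the knockdowns and 0.42 ± 0.14, with 0.29 ± 0.15 for its other probe (limma, adjusted p = 0.286). Of 19 brakes of the cycle tested, 3 means were higher and 1 lower at that level, against 14.1% of all features in either direction and 5.9% higher. Rb1, the retinoblastoma protein that holds E2F back, gave signals of 1915, 1628 and 1715 in the controls and 2049, 2158 and 2140.1 in the knockdowns, with the knockdown samples above the controls and 0.27 ± 0.07 (limma, adjusted p = 0.218). Gadd45a, a stress-induced inhibitor, had 0.21 ± 0.06 (limma, adjusted p = 0.237). Cdkn1a (p21), the inhibitor that p53 induces, had -0.02 ± 0.08, or 0.003, 0.01 and 0.02 with quantile normalization, median centring and normexp with quantile normalization, of which only the last lay above the median of all features, and its other probe gave -0.19 ± 0.05. The signs of Ccnd1, Skp2, Rb1 and Gadd45a were the same under every alternative tried. With array weights Ccnd1 and Rb1 passed, each at an adjusted p of 0.0434 (limma; ranges over the alternatives 0.0434 to 0.596 and 0.0434 to 0.606).

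**Figure D5:**
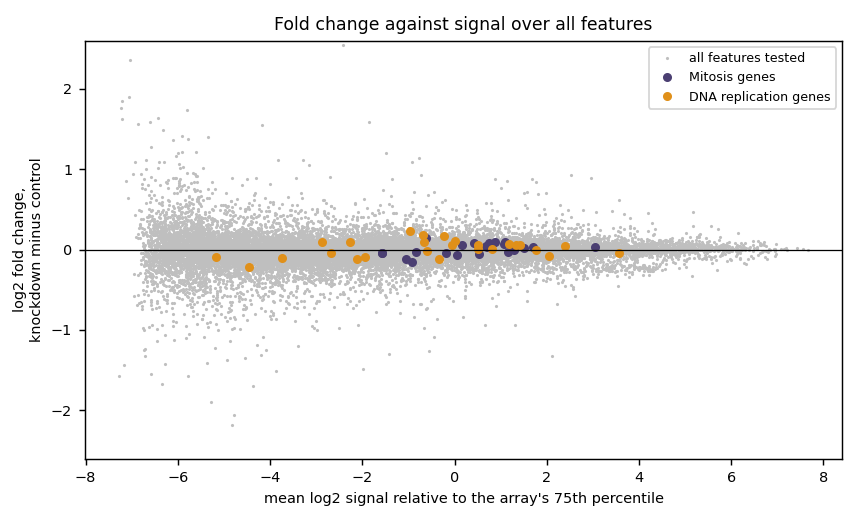
Log2 fold change, knockdown minus control, against mean log2 signal relative to the array's 75th percentile, for all 18464 features tested (grey) and the mitosis and replication genes (coloured). The 50 genes lie between -0.22 and 0.23, while the features run from -2.18 to 2.55.

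The cell type label was checked with marker genes. Their sums and means are processed signals before scaling. The arrays' 75th percentiles were 1494 to 1612 units in the controls and 1510 to 1518 in the knockdowns. Differences between groups in these sums and means therefore also hold that difference in scale. Of 13 fibroblast markers 11 were well above background on all 6 arrays, and Dcn and Lum, both proteoglycans of dermal matrix, on none. The summed signal of the fibroblast markers was 717736 to 782599 units in the controls and 698904 to 716470 in the knockdowns. Most of that sum was Col1a1, Col1a2 and Col3a1 (control means 195237, 191681 and 167055), with log2 fold changes of -0.02, 0.06 and 0.04. At an unadjusted p under 0.05 their means were higher for 1 and lower for 4 of 11 markers, against 14.1% of all features in either direction. Fap was higher (0.23), and Prrx1 (-0.70), Pdgfra (-0.51), Twist2 (-0.24) and Vim (-0.11) were lower. Of the keratinocyte markers 4 of 6 were well above background on all arrays (sums 3995 to 4226 in controls, 4033 to 4123 in knockdowns) and Epcam and Cdh1 on none. Nearly all of that sum was Tp63 (mean 3841 in controls and 3858 in knockdowns), and the keratins Krt5, Krt14 and Krt15 had control means of 36.3, 118 and 86.0. Of the endothelial markers 2 of 6 were (292 to 354 and 288 to 351), with Pecam1, Tie1 and Cldn5 on none. Of the macrophage and leukocyte markers 4 of 7 were (1216 to 1630 and 1238 to 1297), with Ptprc and Itgam on none. Of the pericyte markers 5 of 6 were (13102 to 14895 and 14648 to 17674), with Rgs5 on none, and at an unadjusted p under 0.05 1 mean was higher and 2 were lower of 5, against 14.1% of all features. Most of the pericyte sum was Cspg4 (mean 11010.3 in controls and 11793 in knockdowns). The part of these marker differences in the values of Gins1 and Cdc45 was not tested.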

How the data were processed

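Total RNA of 6 rat dermal fibroblast samples, grouped by their titles (control lentivirus n = 3, shRNA lentivirus n = 3), was read on one-colour Agilent arrays. The authors deposited each array's scanner output, in which the processed intensity of every spot is on a linear scale, background-subtracted and not normalized between arrays. The scanner software was Agilent Feature Extraction; the submitters' processing notes give its version as 11.0.0.1, while 11.0.1.1 is found per the file headers.

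From each array's 42877 gene spots, 386 to 513 spots flagged as outliers were left out; 0 were saturated. Between 68.9% and 74.1% of an array's 30367 probes gave signals well above background. Log2 processed signals were taken relative to the 75th percentile of their array and averaged per probe, and scaled signals are their antilogs times a common 75th percentile (1538 units, the geometric mean of the arrays' 1494 to 1612). Testing was limited to the 20776 probes that 1 group or both had well above background on each of its 3 arrays. RefSeq accessions without version named 18005 probes (GRCr8 table, for names only; the array design is on another build), and the brightest tested probe stood for a gene, giving 18464 features, 5 of them with a missing value on an array. The comparison used lmFit and eBayes of limma 3.58.1 under R 4.3.3 (Benjamini-Hochberg over all features; threshold 0.05), and the code was tested on simulated data. The number of arrays limits the precision. No 2 arrays held identical values.

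Alternatives changed the background correction, the scaling, the filter, the choice of probe, the model, the blocks and the samples. The members, the other lists and the rules were chosen with earlier results of these data known. Genes chosen to be given on every array were Mki67 and Top2a (without a tested probe), Ccnb1, Cdk1, Ccna2, Aurkb, Cdc20, Pcna, Mcm2, Rrm2, Tyms, E2f1, Ccne1 and Ccne2. The 5 mitosis and 5 replication genes with the smallest p were added. In each other list the 2 genes with the smallest p were named, plus Ccnd1, Cdkn1a and Foxm1. The 1.25-fold bound, Gins4, the printed promoters the alternatives for genes outside the list and the fold changes relative to the median of all features were chosen after the values were seen. Scan membership came from identifiers shared in the file headers.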

Additional observations from a re-analysis of the deposited data

How the results depend on the processing

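Of 1098 fold changes recomputed under alternatives (61 genes, 18 alternatives), 1044 kept direction and side of the threshold, 48 in 21 genes changed sign and 6 came to pass, all with array weights (Gins1, Cdc45, Smc4, Gins3, Ccnd1 and Rb1); the cause was not tested. The number of features passing at an adjusted p under 0.05, 0 here, was 1 with median centring, 877 with array weights, 6 within the 4 arrays scanned together and 0 to 3 with a sample left out (limma). Mitosis genes at an unadjusted p under 0.05, 0 here, numbered 1 with quantile normalization, median centring or the mean of a gene's probes, 2 with normexp and quantile normalization, 3 with an intensity trend, 7 with array weights and 0 to 1 with a sample left out. Replication genes, 2 here, numbered 5 with array weights and 0 within the 4 arrays scanned together. With a sample left out they numbered 0 to 4 (4 without control 1, 1 without control 3, 0 without knockdown 3). With array weights 2 passed at an adjusted p. Of all features 14.1% were at that unadjusted level here, with median centring and with the mean of a gene's probes. The share was 14.7% with quantile normalization, 14.2% with normexp and quantile normalization and 15.1% with an intensity trend. It was 28.2% with array weights, 10.3% within the 4 arrays scanned together and 8.01% to 17.6% with a sample left out. With the replicate number as a block, 1 mitosis and 2 replication genes were at an unadjusted p under 0.05, against 12.3% of all features. No feature passed after adjustment in that fit. Same-numbered samples had correlations of deviations of 0.10, 0.26 and -0.29. With 3 samples per group these values cannot settle whether the numbers pair the samples. The median over all features moved from -0.007 to 0.017 with median centring, 0.008 with quantile normalization, 0.060 with normexp and 0.006 with normexp and quantile normalization. Signs against 0 turned under these scalings in 4, 1, 10 and 5 of 61 genes. Relative to that median they turned in 0, 3, 23 and 5. Against 0 they turned with median centring for Plk1 (0.018), Tyms (0.0075), Tk1 (0.018) and Cdkn1a (0.0079); with quantile normalization for Cdkn1a (0.0035); with normexp for Aurkb (0.019), Plk1 (0.031), Tpx2 (0.017), Rrm1 (0.12), Tyms (0.022), Gins2 (0.036), Cdt1 (0.27), Ccne2 (0.015), Brca1 (0.15) and Gins3 (0.23); with normexp and quantile normalization for Plk1 (0.055), Rrm2 (0.011), Tyms (0.020), Cdt1 (0.018) and Cdkn1a (0.018); with the mean of probes for Ccna2 (-0.0028), Mcm2 (-0.013) and Foxm1 (-0.017); and with array weights for Aurkb (1.11e-05), Cdc20 (-0.041), Ccne1 (-0.044) and Tk1 (0.028). Leaving out a sample turned the sign of Kif20a (-0.045 to 0.068), Gins2 (-0.085 to 0.021), Cdt1 (-0.25 to 0.032), Ccne1 (-0.050 to 0.041), Tk1 (-0.043 to 0.022), Plk1 (-0.051 to 0.040), Cdc20 (-0.011 to 0.078), Kif20b (-0.091 to 0.022), Mcm2 (-0.024 to 0.045), Mcm7 (-0.0012 to 0.088), Tyms (-0.041 to 0.014) and Cdkn1a (-0.076 to 0.029) (lowest to highest over the 6). Low signal limits Cdt1, Brca1 and Gins3.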
